A study of Mus musculus with 6 samples.

Results

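Peptides on major histocompatibility complex (MHC) class I molecules show the immune system a sample of what a cell makes. Proteasomes cut proteins into peptides, the TAP1 and TAP2 transporter moves them into the endoplasmic reticulum, tapasin (Tapbp) holds the empty class I molecule at the transporter, and the aminopeptidase ERAP1 trims peptides to length. The finished complex is a heavy chain, such as H2-K1 or H2-D1 in mice, with beta-2-microglobulin (B2m). In developing brain, class I molecules are also known from neurons, where they have been studied for roles at synapses. Their genes are switched on by interferon and by NLRC5, which works at a promoter module (the SXY module) together with the RFX complex of Rfx5, Rfxap and Rfxank, a cyclic AMP response element binder and NF-Y.

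The 10 genes described here form a named set and were matched by symbol to the Ensembl identifiers of the count table, in which all 10 were found among 33084. They were chosen by their place in class I presentation, as possible downstream genes of the RFX complex, and selected on the level of Tap1, already seen to be higher in the Dyrk1a+/- libraries of this same table. The difference between genotypes in these genes is therefore given as a description, with no test. Forebrains of mouse embryos at embryonic day 15.5 were sequenced from 3 Dyrk1a+/- and 3 wt samples, labelled as biological replicates. Dyrk1a+/- embryos come from a line with a mutant allele of Dyrk1a, a kinase gene of brain growth, and wt embryos are their controls without it. Neither the inactivated part of Dyrk1a nor the strain background, sex, litter or MHC type of any embryo is in the labels. As the labels do not say whether each sample was a separate embryo, p-values measure the spread between these samples.

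Dyrk1a+/- libraries held 18699434 to 25012356 counts and wt libraries 25270710 to 32865708. Values are given as CPM, counts per 1000000 of a library's scaled total, so that 1 count in the smallest library was 0.0533 CPM. Dyrk1a+/- replicate 2 and wt replicate 3 stood apart from the 4 other libraries in a principal component analysis (component 1, 34.9% of the variance), so differences are also given between these 2 libraries and among the 4 others. Dyrk1a itself was at 151 ± 6.28 CPM in Dyrk1a+/- and 174 ± 12.9 CPM in wt (SD, n = 3 each), with no overlap between genotypes (edgeR quasi-likelihood test, Benjamini-Hochberg adjusted p = 0.59). Of 12 markers of forebrain neurons and 10 of forebrain progenitors, all were expressed above the low-count filter. Of 9 lymphoid and neutrophil markers in the table, 8 averaged below 1 CPM.

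The promoters of the presented molecules are shown first, because the RFX complex and its partners act there. RefSeq windows on GRCm38.p6, running from 250 bases before to 50 after the transcript start, were found for 8 of the 10 genes and not for Tap2 and Nlrc5. In each line capitals mark every match, on either strand, to TGACG (the core of the X2 box, a cyclic AMP response element), CCAAT (the Y box of NF-Y), GCAAC (a core of RFX sites), GAAA, any 2 bases and GAAA (the core of an interferon-stimulated response element) or GGG, any 5 bases and CC (the core of a kappa B site). Some kappa B matches overlap each other. The windows are those of H2-K1 (chr17:34000284-34000583, minus strand), H2-D1 (chr17:35262844-35263143, plus strand), B2m (chr2:122147437-122147736, plus strand) and Tap1 (chr17:34187306-34187605, plus strand).
H2-K1: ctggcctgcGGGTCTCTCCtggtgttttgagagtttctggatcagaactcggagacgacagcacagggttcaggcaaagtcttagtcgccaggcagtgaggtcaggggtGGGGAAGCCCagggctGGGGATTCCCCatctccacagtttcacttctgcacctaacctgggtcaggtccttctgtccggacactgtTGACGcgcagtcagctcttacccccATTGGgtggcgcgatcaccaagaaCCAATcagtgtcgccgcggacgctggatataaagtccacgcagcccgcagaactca
H2-D1: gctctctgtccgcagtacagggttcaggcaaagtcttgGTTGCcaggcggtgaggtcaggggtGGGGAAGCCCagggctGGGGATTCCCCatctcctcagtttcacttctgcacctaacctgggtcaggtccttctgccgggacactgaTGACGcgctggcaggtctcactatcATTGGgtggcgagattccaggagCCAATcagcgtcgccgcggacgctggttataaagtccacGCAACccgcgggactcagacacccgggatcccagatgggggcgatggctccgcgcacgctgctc
B2m: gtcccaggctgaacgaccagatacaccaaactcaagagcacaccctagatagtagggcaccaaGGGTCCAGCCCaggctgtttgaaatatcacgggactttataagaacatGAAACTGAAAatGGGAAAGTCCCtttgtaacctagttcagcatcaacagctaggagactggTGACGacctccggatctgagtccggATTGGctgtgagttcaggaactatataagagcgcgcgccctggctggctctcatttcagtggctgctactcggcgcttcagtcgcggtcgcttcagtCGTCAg
Tap1: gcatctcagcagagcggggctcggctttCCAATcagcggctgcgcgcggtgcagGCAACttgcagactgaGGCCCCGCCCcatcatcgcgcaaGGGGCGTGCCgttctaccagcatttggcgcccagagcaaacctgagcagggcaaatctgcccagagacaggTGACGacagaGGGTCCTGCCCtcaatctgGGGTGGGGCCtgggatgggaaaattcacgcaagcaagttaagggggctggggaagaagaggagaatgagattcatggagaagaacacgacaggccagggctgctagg
In H2-K1, H2-D1 and B2m, TGACG was followed after 20 bases by ATTGG, the Y box on the other strand. Of 32851 mouse promoter windows of this length, 31 held that spaced pair, 0.0944%, in 27 genes, among them the class I-like gene H2-M3. The spacing was read from these windows before it was counted in the others, and the count is a description. The Tap1 window held TGACG without the spaced Y box.

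Tap1 and Psmb9 are transcribed away from each other from starts 226 bases apart, and 275 bases of their windows are the same DNA, so the Tap1 line also shows the Psmb9 promoter. Matches to the single motifs were frequent in the genome. TGACG was in 5 of the 8 genes and in 20.8% of all windows. CCAAT was in 6 of the 8 and in 37.4% of all, and the kappa B core in 5 of the 8 and in 50.8% of all. GCAAC was in 3 of the 8 (Tap1, Psmb9 and H2-D1) and in 35.2% of all windows. The matches of Tap1 and Psmb9 to these motifs are the same bases read from opposite strands, so their shared sites are counted for both genes. The interferon-stimulated response core was in 2 of the 8, B2m and Erap1, and in 3.44% of all. Only exact matches were counted, so a window without one may still hold a variant of the site. These are matches of letters and not measured binding sites, and no binding was measured in this study.

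**Figure D1:**
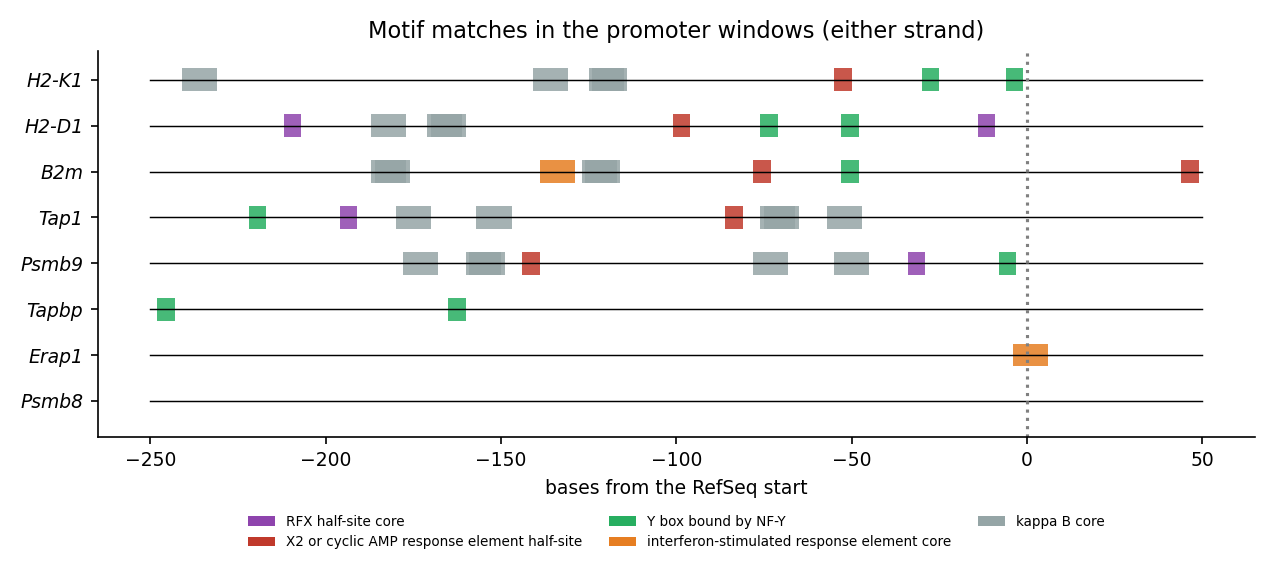
Motif matches in the promoter windows of the 8 genes with a RefSeq window, by distance in bases from the transcript start (dotted line); each block is a match on either strand, coloured by motif. In H2-K1, H2-D1 and B2m a red X2 core is followed after 20 bases by a green Y box.

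Levels spanned a wide range, with B2m above the middle of all tested genes and the transporter, Nlrc5 and immunoproteasome genes near the bottom. Per kilobase of exon, B2m was highest, at 7.43 ± 0.77 CPM in Dyrk1a+/- and 7.3 ± 1.61 CPM in wt (SD, n = 3 each). In wt, 63.2% of tested genes had a lower level per kilobase than B2m. Tapbp followed with 4.73 ± 0.535 in Dyrk1a+/- and 4.57 ± 0.476 CPM per kilobase in wt, near the middle of all tested genes.

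The heavy chains came next in wt, H2-D1 at 3.28 ± 0.662 and H2-K1 at 1.16 ± 0.0785 CPM per kilobase, then Erap1 at 0.672 ± 0.0455. In Dyrk1a+/-, H2-D1 was at 2.12 ± 1.43, H2-K1 at 1.01 ± 0.167 and Erap1 at 0.708 ± 0.0771 CPM per kilobase. Neighbours in this order from B2m down to Tap1 did not overlap between wt libraries. Tap1 and Tap2 overlapped in wt, as did Tap2 with Nlrc5 and Nlrc5 with Psmb8. The immunoproteasome genes Psmb8 and Psmb9 were lowest, at 0.121 and 0.0834 CPM per kilobase in Dyrk1a+/- and 0.0838 and 0.0415 in wt. Only 0.414% of tested genes had a lower level in wt than Psmb8.

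**Figure D2:**
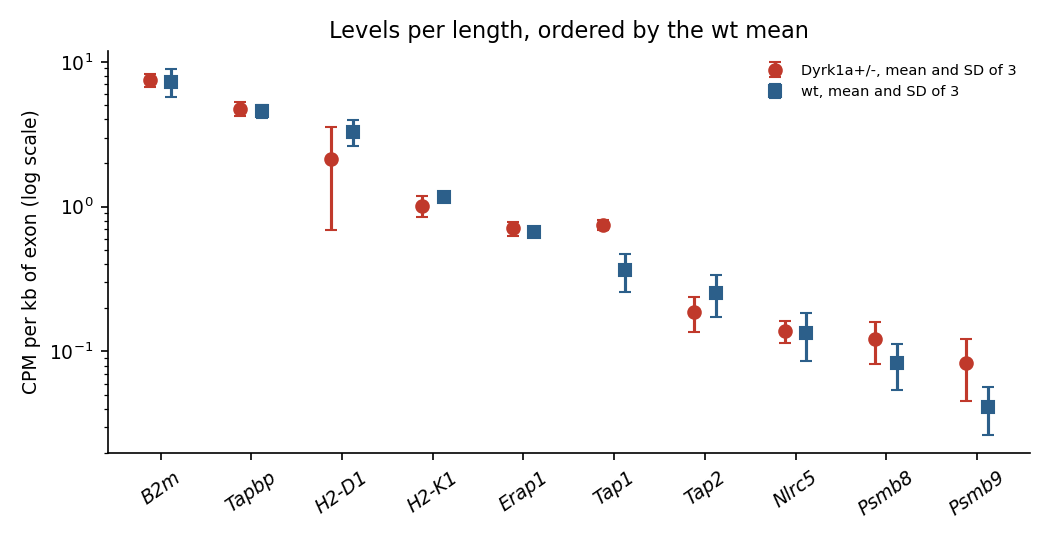
Mean CPM per kilobase of exon (log scale) of the 10 genes in 3 Dyrk1a+/- libraries (red circles) and 3 wt libraries (blue squares), ordered by the wt mean, with SD bars. Levels run in wt from 7.3 for B2m to 0.0415 for Psmb9, and Tap1 is the gene whose genotypes stand clear of each other.

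Tap1 was the only gene of the 10 whose Dyrk1a+/- and wt libraries did not overlap, as was so for 14.0% of all tested genes. Tap1 (ENSMUSG00000037321, GRCm38 chromosome 17, 34187553 to 34197225) encodes a subunit of the peptide transporter. It was at 3.96, 4.47 and 3.89 CPM in Dyrk1a+/- replicates 1 to 3, against 2.04, 1.39 and 2.54 CPM in wt replicates 1 to 3. The lowest Dyrk1a+/- library was above the highest wt library. Mean levels were 4.11 ± 0.313 CPM in Dyrk1a+/- and 1.99 ± 0.579 CPM in wt (SD, n = 3 each), a log2 fold change of 1.04 (SE 0.226) or 2.06-fold. These values rest on 82, 111 and 73 counts in Dyrk1a+/- and 67, 35 and 71 counts in wt. Log2 CPM differed by 0.81 between the 2 libraries that stood apart and by 1.22 among the 4 others.

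Among all tested genes 6.53% had every Dyrk1a+/- library above every wt library, and 0.268% had a log2 fold change of 1 or more. Because Tap1 was picked for being higher, its place among these is not evidence of a difference. Across all tested genes edgeR called 2 of 19403, which is 0.0103%, with 0.00515% higher and 0.00515% lower. DESeq2 called 0.155% of all tested genes, of which 15262 had an adjusted p. By edgeR 7.88% of all tested genes were at an unadjusted p under 0.05, 3.27% higher and 4.61% lower. For the 8 genes of the set that passed the low-count filter no calls are given, as they were chosen with this contrast in view. The 8 had a median log2 fold change of 0.04, with 5 higher and 3 lower, against a median of 0.005 over all tested genes. Since the set was chosen with this contrast in view, nothing is read from these counts.

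Tap2 (ENSMUSG00000024339, chromosome 17, 34203527 to 34216321), is the partner subunit of the transporter. It was at 0.918, 0.684 and 0.533 CPM in Dyrk1a+/-, against 1.16, 1.11 and 0.609 CPM in wt, and the genotypes overlapped. Its log2 fold change was -0.43 (SE 0.346), on 46 counts in Dyrk1a+/- and 83 in wt over all libraries. The difference in log2 CPM was 0.17 between the 2 libraries that stood apart and -0.70 among the 4 others, so its sign depended on which libraries were compared.

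Psmb9 (ENSMUSG00000096727, chromosome 17, 34181987 to 34187764), which shares its promoter with Tap1, encodes the beta-1i subunit of the immunoproteasome. It had 9, 4 and 6 counts in Dyrk1a+/- libraries and 4, 3 and 6 counts in wt libraries, too few to pass the filter. In CPM these were 0.435, 0.161 and 0.32 in Dyrk1a+/-, against 0.122, 0.119 and 0.215 in wt, and the genotypes overlapped. The annotated exons of Tap1 and Psmb9 overlap by 212 bases on opposite strands, and whether reads were counted by strand is not given in the sources used here.

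**Figure D3:**
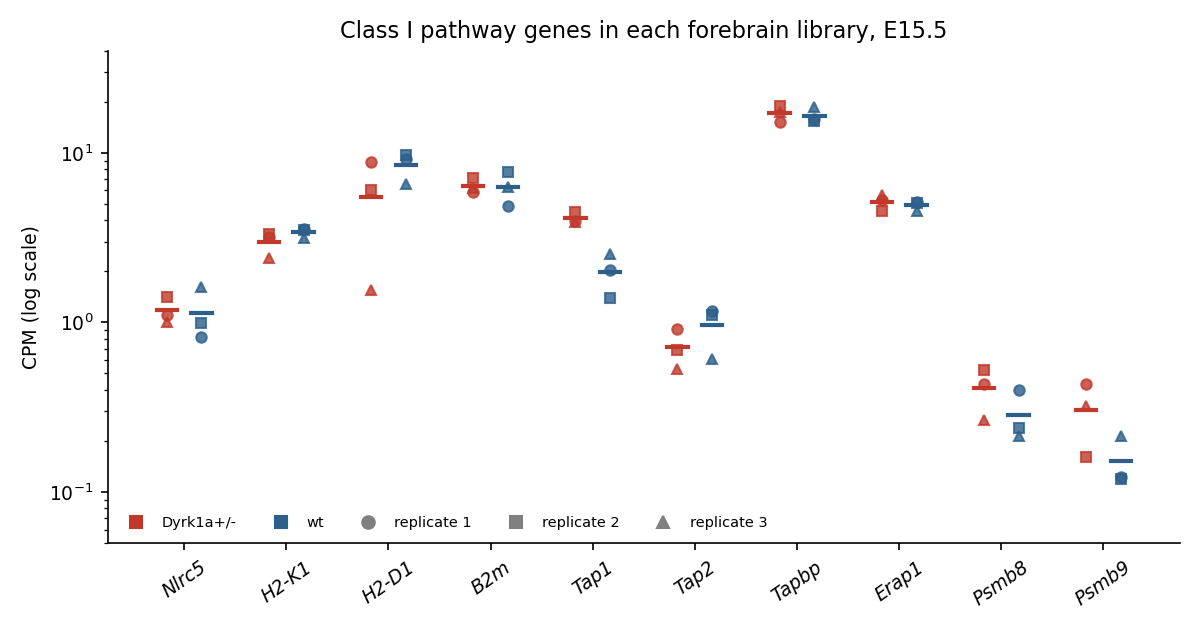
CPM (log scale) of the 10 genes in every library; red points are Dyrk1a+/- and blue points wt, shapes mark the replicate number and bars the mean of 3. Tap1 has all 3 Dyrk1a+/- libraries, at 3.89 to 4.47 CPM, above all wt libraries, at 1.39 to 2.54; H2-D1 has a low point of 1.55 CPM in Dyrk1a+/- replicate 3.

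Psmb8 (ENSMUSG00000024338, chromosome 17, 34197721 to 34201454), the beta-5i subunit, lies next to Tap1 and was also below the filter. Its counts were 9, 13 and 5 in Dyrk1a+/- and 13, 6 and 6 in wt, and in CPM the genotypes overlapped. Immunoproteasome subunits replace the constitutive ones, so each was set against its counterpart within the same library. Psmb8 per kilobase was 0.279 ± 0.0694% of Psmb5 in Dyrk1a+/- and 0.21 ± 0.0718% in wt. Psmb9 was 0.113 ± 0.0543% of Psmb6 in Dyrk1a+/- and 0.0558 ± 0.0113% in wt. Psmb10, the inducible subunit outside the MHC, was much nearer its counterpart, at 11.1 ± 1.06% of Psmb7 in Dyrk1a+/- and 12.6 ± 1.51% in wt (SD, n = 3 each for these ratios). Transcripts of the constitutive catalytic subunits thus far outnumbered those of Psmb8 and Psmb9 in both genotypes.

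H2-D1 (ENSMUSG00000073411, chromosome 17, 35262730 to 35267499), a classical heavy chain, varied most between libraries. It was at 8.84, 6.04 and 1.55 CPM in Dyrk1a+/- replicates 1 to 3, against 9.15, 9.72 and 6.52 CPM in wt replicates 1 to 3. Dyrk1a+/- replicate 3, with 29 counts, lay far below every other library, while Dyrk1a+/- replicate 1 lay within the wt range. The log2 fold change of -0.62 (SE 0.45) was -0.19 without Dyrk1a+/- replicate 3 and -1.12 without Dyrk1a+/- replicate 1. In log2 CPM the difference was -0.11 between the 2 libraries that stood apart and -1.35 among the 4 others.

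A few other genes of the MHC region, picked after their values were seen, sorted the libraries in the same way. Gm18733, an annotated transcribed pseudogene 10.7 kb beyond H2-D1, had 1, 50 and 58 counts in Dyrk1a+/- replicates 1 to 3 and 4, 1 and 54 counts in wt replicates 1 to 3. It was nearly absent from Dyrk1a+/- replicate 1 and wt replicates 1 and 2, and clearly present in the 3 other libraries, which are those with the lowest H2-D1. C4a, a gene of the complement C4 family, was at 2.37, 5.96 and 8.43 CPM in Dyrk1a+/-, against 2.32, 2.86 and 5.12 CPM in wt. A930015D03Rik, an antisense transcript, was at 1.3, 3.42 and 3.41 CPM in Dyrk1a+/-, against 0.885, 1.47 and 2.65 CPM in wt.

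For both genes the same 3 libraries were the highest. H2-T22, a class I-like gene whose annotated span overlaps A930015D03Rik, was at 2.9, 2.66 and 1.23 CPM in Dyrk1a+/-, against 2.59, 2.94 and 2.4 CPM in wt, lowest again in Dyrk1a+/- replicate 3. H2-T23, which lies within the annotated span of A930015D03Rik, did not sort the libraries in this way. It was at 2.27, 2.7 and 2.03 CPM in Dyrk1a+/-, against 2.38, 2.14 and 1.9 CPM in wt. H2-Q4, at 1.64, 2.62 and 1.6 CPM in Dyrk1a+/- and 1.89, 2.46 and 1.4 CPM in wt, did not either. Of the 3 libraries, Dyrk1a+/- replicate 2 and wt replicate 3 also stood apart in the principal component analysis. The sorting by Gm18733, C4a and A930015D03Rik crosses the genotypes, with 2 of the 3 libraries from Dyrk1a+/- embryos. Its part in the H2-D1 values was not tested, and neither was whether the MHC type, which is not in the labels, differed between the embryos. No 50-base stretch of the annotated Gm18733 transcript is shared with H2-D1.

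**Figure D4:**
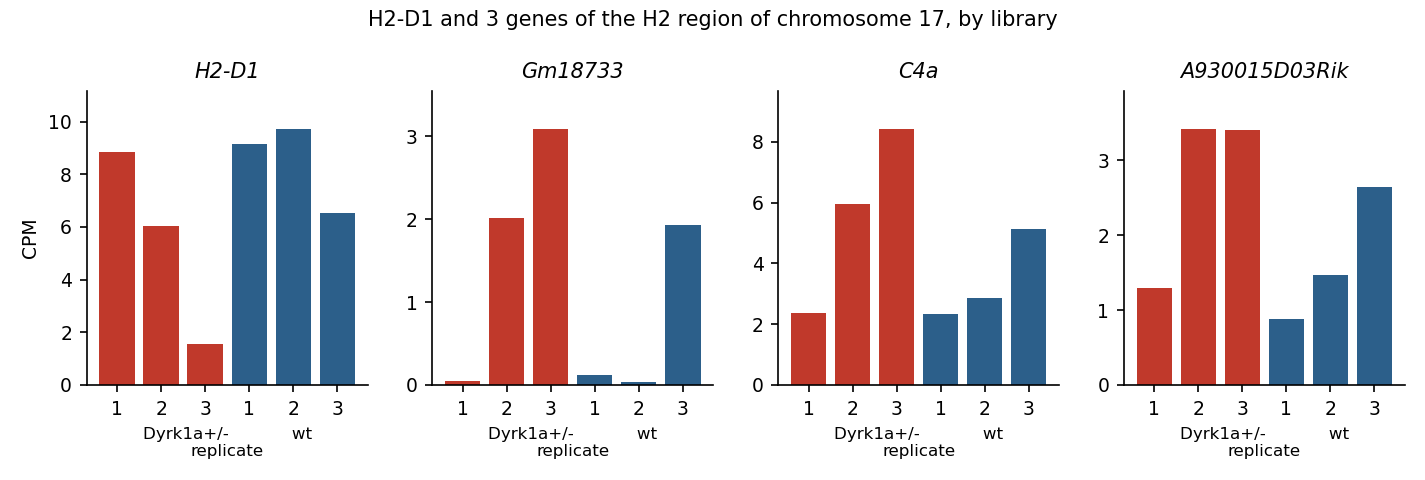
CPM of H2-D1, the pseudogene Gm18733, C4a and A930015D03Rik in each library (red bars Dyrk1a+/-, blue bars wt, numbered by replicate; each panel has its own scale from 0). Dyrk1a+/- replicates 2 and 3 and wt replicate 3 have the lowest H2-D1, 1.55 to 6.52 CPM, and the highest values of the 3 other genes.

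H2-K1 (ENSMUSG00000061232, chromosome 17, 33996017 to 34000347), the other classical heavy chain, was at 3.19, 3.3 and 2.4 CPM in Dyrk1a+/-, against 3.57, 3.53 and 3.15 CPM in wt. The lowest value was again in Dyrk1a+/- replicate 3, below the 5 others, and the genotypes overlapped. Its log2 fold change was -0.20 (SE 0.178), or -0.08 without Dyrk1a+/- replicate 3, and the difference in log2 CPM was 0.07 between the 2 libraries that stood apart and -0.36 among the 4 others. The ratio of H2-D1 to H2-K1 in CPM was 2.77, 1.83 and 0.644 in Dyrk1a+/- replicates 1 to 3 and 2.56, 2.75 and 2.07 in wt replicates 1 to 3. Heavy-chain genes are close copies, and of the 50-base stretches of their annotated transcripts 9.63% in H2-K1 and 12.8% in H2-D1 occur in another gene. Shares were also 23.2% in Tapbp, 11.9% in Psmb8, 11.6% in Tap2 and 10.7% in Erap1. In those genes most of it was shared with an overlapping gene on the opposite strand. How reads with several matches were counted is not given in the sources used here. These levels are uncertain to that extent.

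B2m (ENSMUSG00000060802, chromosome 2, 122147686 to 122153083), the light chain shared by class I molecules, lies outside the MHC. It was at 5.84, 7.12 and 6.19 CPM in Dyrk1a+/-, against 4.88, 7.66 and 6.3 CPM in wt. The Dyrk1a+/- libraries all lay inside the wt range, and the log2 fold change was 0.03 (SE 0.182). No 50-base stretch of B2m occurs in another annotated gene, so its count is free of that doubt.

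Tapbp (ENSMUSG00000024308, chromosome 17, 33915899 to 33929292), the chaperone that bridges class I molecules and the transporter, was at 15.1, 18.9 and 17.4 CPM in Dyrk1a+/-, against 15.8, 15.4 and 18.6 CPM in wt. Its genotypes overlapped and the log2 fold change was 0.05 (SE 0.124). The highest library of each genotype was the one that stood apart. Gm19412, an antisense gene with 84 counts in all, overlaps its exons by 904 bases. Zbtb22, with 6188 counts in all, overlaps them by 149 bases on the same strand.

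Erap1 (ENSMUSG00000021583, chromosome 13, 74639568 to 74693201), the trimming peptidase, was at 5.27, 4.55 and 5.66 CPM in Dyrk1a+/-, against 5.13, 5.04 and 4.51 CPM in wt. The genotypes overlapped, with a log2 fold change of 0.07 (SE 0.145). Cast, the calpastatin gene on the opposite strand, overlaps its exons by 834 bases. Nlrc5 (ENSMUSG00000074151, chromosome 8, 94434356 to 94527272), the class I transactivator, was at 1.11, 1.41 and 1.01 CPM in Dyrk1a+/-, against 0.824, 0.992 and 1.61 CPM in wt. All 3 Dyrk1a+/- libraries lay inside the wt range, and the log2 fold change was 0.06 (SE 0.311).

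**Figure D5:**
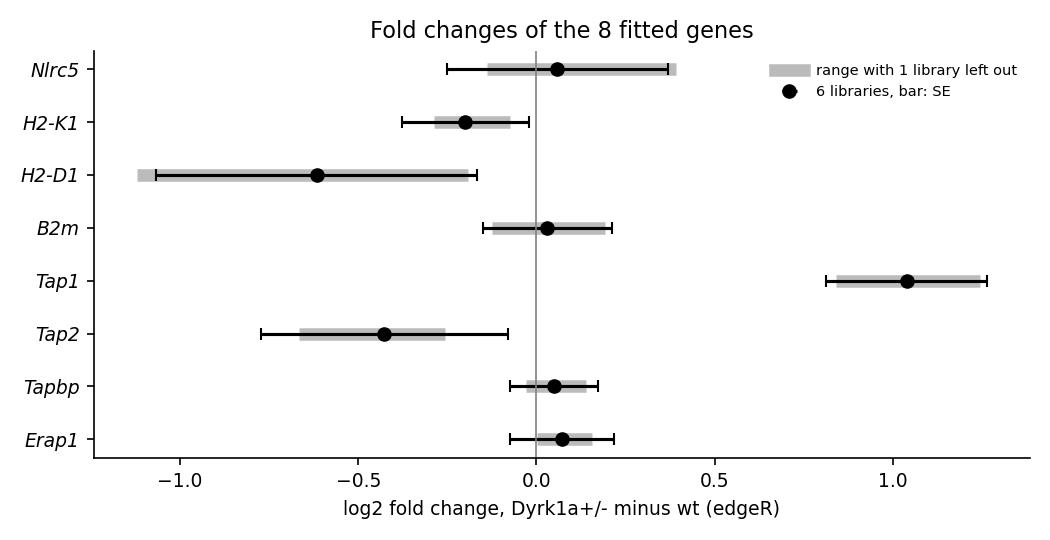
Log2 fold change (Dyrk1a+/- minus wt, edgeR) of the 8 genes that passed the low-count filter, with SE bars; grey bands give the range when 1 library is left out. Tap1, chosen for being higher, is at 1.04, Nlrc5, B2m and Tapbp lie near 0, and H2-D1 runs from -1.12 to -0.19.

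Upstream of these genes, Rfx5 was higher in Dyrk1a+/-, at 58.2 ± 1.44 CPM, against 32.0 ± 1.47 CPM in wt (SD, n = 3 each; log2 fold change 0.86, SE 0.0739; edgeR, Benjamini-Hochberg adjusted p = 0.022). This call was lost in 4 of the 6 fits that left out a library, those without Dyrk1a+/- replicate 1, Dyrk1a+/- replicate 3, wt replicate 1 or wt replicate 2. Its partners did not pass, Rfxap at 13.5 ± 0.366 CPM in Dyrk1a+/- and 12.5 ± 1.14 CPM in wt, and Rfxank at 13.9 ± 1.82 CPM in Dyrk1a+/- and 12.9 ± 0.867 CPM in wt (edgeR adjusted p = 0.844 and 0.88). Per kilobase, Rfx5, Rfxap and Rfxank were at 10.6, 6.03 and 3.51 CPM in Dyrk1a+/- and 5.83, 5.56 and 3.25 CPM in wt. Of 16 genes of the RFX complex and its promoter partners 15 were tested, and 1, Rfx5, was called by both edgeR and DESeq2. Of the 15, 14 had a positive log2 fold change (median 0.118), against 9944 of 19403 over all tested genes (median 0.005). At an unadjusted p under 0.05 there were 2, Rfx5 and Rfx2 (log2 fold change 0.35, SE 0.155), where 3.27% of all tested genes were higher and 0.00515% were called higher. The list, which holds Rfx5, was chosen with earlier results of these data known, so these counts are a description. Ciita, the class II counterpart of Nlrc5, had 27 counts over the Dyrk1a+/- libraries and 22 over the wt libraries and was below the filter.

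Rfx5 is best known for class II genes, whose antigen-presenting chains had few counts. Of 12 class II genes, 8 were below the filter, and of the 4 tested 3 were higher and 1 lower. EdgeR called 0 of the 4, with 0 at an unadjusted p under 0.05, and DESeq2 0 of the 3 to which it gave an adjusted p. The chains H2-Aa, H2-Ab1 and H2-Eb1 had 10, 6 and 11 counts over the 3 Dyrk1a+/- libraries and 10, 15 and 13 over the 3 wt libraries. Among those tested, Ifi30, a thiol reductase of endosomes, was at 4.56 ± 0.61 CPM in Dyrk1a+/- and 3.85 ± 0.303 CPM in wt, and H2-DMa, which edits class II peptides, at 3.47 ± 1.39 CPM in Dyrk1a+/- and 3.06 ± 0.782 CPM in wt (SD, n = 3 each). The lower 1 was Ctss, the protease cathepsin S, at 3.66 ± 0.505 CPM in Dyrk1a+/- and 3.86 ± 0.388 CPM in wt (SD, n = 3 each).

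Genes that feed and fold class I molecules were not called in either direction, as was so for nearly all tested genes. Calr, Canx and Pdia3, general chaperones of the endoplasmic reticulum that also serve the loading complex, were at 270 ± 19.8, 378 ± 17.1 and 118 ± 1.35 CPM in Dyrk1a+/- and 282 ± 24.7, 398 ± 25.0 and 119 ± 13.8 CPM in wt (SD, n = 3 each). Per kilobase these were 93.9, 80.5 and 37.6 CPM in Dyrk1a+/- and 98.0, 84.8 and 37.8 CPM in wt, above each gene of the class I set. Of 16 such partners edgeR called 0 (0.0103% of all tested genes), with 0 at an unadjusted p under 0.05 (7.88%) and 0 by DESeq2 (0.155%). Their log2 fold changes had a median of -0.01, with 6 higher and 10 lower. Of the 14 subunits of the constitutive proteasome core edgeR also called 0, with 0 at an unadjusted p under 0.05 and 0 by DESeq2. Of the 14, 13 were higher and 1 lower (median 0.05), against 9944 of 19403 higher over all tested genes (median 0.005). The lowest p values among these were those of Psma1 (0.12, SE 0.069) and Psma6 (0.13, SE 0.081).

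Of 24 other class I and class I-like heavy chains 21 were found by symbol and 14 were tested. Of the 14, 4 had every Dyrk1a+/- library below every wt library and 1 had every one above, against 7.49% and 6.53% of all tested genes. EdgeR called 0 of them (0.0103% of all tested genes), as did DESeq2 among the 8 with an adjusted p (0.155%). The median log2 fold change was -0.157. At an unadjusted p under 0.05 by edgeR there was 1, lower in Dyrk1a+/- (4.61% of all tested genes). This was Fcgrt, the neonatal Fc receptor, at 10.2, 8.93 and 7.95 CPM in Dyrk1a+/-, against 12.3, 12.4 and 12.4 CPM in wt (log2 fold change -0.45, SE 0.122; edgeR adjusted p = 0.483). Next was H2-M5, at 5.82 ± 0.515 CPM in Dyrk1a+/- and 4.81 ± 0.127 CPM in wt (log2 fold change 0.27, SE 0.134). The class Ib genes H2-T23, a ligand of natural killer receptors, and H2-Q4 were at 2.33 ± 0.339 and 1.95 ± 0.575 CPM in Dyrk1a+/- and 2.14 ± 0.241 and 1.92 ± 0.532 CPM in wt (SD, n = 3 each).

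Interferon is the main inducer of class I genes, and its response genes mostly had negative log2 fold changes. Of 30 such genes 20 were tested and edgeR called 0 (0.0103% of all tested genes). By edgeR 4 were at an unadjusted p under 0.05, all of them lower (4.61% of all tested genes). DESeq2 called 0 of the 5 to which it gave an adjusted p, and gave none to Rsad2 and Ifi27. Of the 20, 16 were negative, and the median over them was -0.26, against 9459 of 19403 and a median of 0.005 over all tested genes. The 4 were Rsad2 (-1.47, SE 0.329), the antiviral protein viperin, Ifi27 (-1.15, SE 0.294), the ubiquitin ligase Trim25 (-0.34, SE 0.13) and Lgals3bp (-0.47, SE 0.197). Rsad2 was at 0.676, 0.322 and 0.373 CPM in Dyrk1a+/-, against 1.4, 1.27 and 1.11 CPM in wt (edgeR adjusted p = 0.483). Of the 20, these same 4 had every Dyrk1a+/- library below every wt library, and 0 had every one above. Over all tested genes the shares were 7.49% and 6.53%. Low p and lack of overlap come from the same values, so the 2 counts are not separate results.

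Among 22 receptors, kinases and transcription factors of interferon and NF-kB signalling 21 were tested and edgeR called 0 (0.0103% of all tested genes). By edgeR 0 were at an unadjusted p under 0.05 (7.88%), and DESeq2 called 0 of the 20 with an adjusted p (0.155%). Their median log2 fold change was 0.032. Irf1, which acts at class I promoters, was at 1.91 ± 0.355 CPM in Dyrk1a+/- and 2.19 ± 0.305 CPM in wt (SD, n = 3 each). The lowest p values were those of Irf9 (0.21, SE 0.102) and Ifngr2 (-0.12, SE 0.0752). Of 10 receptors of class I molecules 7 were found and 3 tested, Cd247 (-0.50, SE 0.396), Cd8a (0.24, SE 0.299) and Pirb (0.12, SE 0.412); edgeR called 0, with 0 at an unadjusted p under 0.05, and DESeq2 gave none of the 3 an adjusted p.

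Class I genes are known to be strong in microglia and blood vessels, so markers of these cells were summed in each library. The 16 markers of microglia and macrophages summed to 111, 116 and 100 CPM in Dyrk1a+/-, against 129, 124 and 129 CPM in wt, with no overlap. Of these 16, 14 had a negative log2 fold change, with a median of -0.172, against 9459 of 19403 and a median of 0.005 over all tested genes. The 14 endothelial markers summed to 329 to 367 CPM in Dyrk1a+/- and 331 to 379 CPM in wt, and the 8 pericyte markers to 286 to 307 CPM in Dyrk1a+/- and 303 to 335 CPM in wt.

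Sums of the 12 meningeal markers were 524 to 573 CPM in Dyrk1a+/- and 613 to 724 CPM in wt, and those of 9 erythroid markers 586 to 745 CPM in Dyrk1a+/- and 752 to 950 CPM in wt, with no overlap in either list. Of the 12 meningeal markers 10 were lower (median log2 fold change -0.276), 7 of them at an unadjusted p under 0.05 (edgeR; 4.61% of all tested genes). Ptgds, a prostaglandin synthase of the meninges, was called lower, with 14.7 CPM in Dyrk1a+/- and 32.6 CPM in wt (log2 fold change -1.16, SE 0.109; edgeR adjusted p = 0.0238), and was the other gene called besides Rfx5. The call of Ptgds was lost without Dyrk1a+/- replicate 1, Dyrk1a+/- replicate 3, wt replicate 1 or wt replicate 2, fits in which edgeR called 0 genes. Of the 9 erythroid markers 7 were lower (median -0.418). Of the 12 neuron, 10 progenitor and 6 choroid plexus markers, sums were 4640 to 4760, 1410 to 1590 and 290 to 441 CPM in Dyrk1a+/- and 4870 to 5120, 1280 to 1460 and 370 to 448 CPM in wt. The neuron sums also had no overlap between genotypes, while the progenitor and choroid plexus sums overlapped. By gene, 6 of the 12 neuron markers were higher and 6 lower (median log2 fold change 0.006), so the lower sums were not shared by all. Of the 10 progenitor markers 8 were higher and 2 lower (median 0.253). By edgeR 4 of the 10 were higher at an unadjusted p under 0.05 (3.27% of all tested genes). Of the 6 choroid plexus markers 1 was higher and 5 lower (median -0.089). Apart from the progenitors, marker sums in Dyrk1a+/- reached no higher than those in wt in any of these lists, and no marker in the table was at 0 in all libraries. In bulk tissue, fewer cells of a type and less RNA per cell cannot be told apart, and the part of these cells in the class I values was not tested.

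The genes whose log2 CPM over the 6 libraries was most like that of Tap1, among 16773 with a mean of at least 1 CPM, were Ttc23, Magoh and Prox1os, with Pearson r of 0.994, 0.99 and 0.989. Their changes were smaller, with log2 fold changes of 0.18, 0.15 and 0.56. The 6 libraries share the genotypes and the depth differences, so this likeness is a description.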

How the data were processed

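RNA of forebrains at embryonic day 15.5 was sequenced from 3 Dyrk1a+/- and 3 wt samples, grouped and numbered by their titles. The deposited values are raw counts by Ensembl gene (whole numbers with unequal totals), with no normalization. Per the submitters' processing notes, bcl2fastq 2.17.1.14, HISAT2, SAMtools 1.9 and HTSeq 0.9.1 were used on GRCm38/mm10; the annotation release and strand setting are not given in the sources consulted. The labels name both polyA RNA and a ribosomal-depletion kit. Symbols, exon lengths and coordinates came from GENCODE M21, which named 32888 of 33084 identifiers.

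EdgeR 4.0.16 in R 4.3.3 was run on the counts as deposited (filterByExpr defaults, 19403 genes kept; TMM; quasi-likelihood F test; genotype as the only term; Benjamini-Hochberg adjustment over all genes; threshold 0.05). Standard errors are the log2 fold change over the square root of F. DESeq2 1.42.0 was an alternative. The fit was tested on simulated data. Chi-square over degrees of freedom was 4.81 to 33.3 between libraries, so none was a copy. Deviations of same-numbered samples correlated at 0.201, -0.325 and -0.165. They were taken from the mean of each genotype over 3 samples, so they cannot decide whether numbers pair samples, and the labels do not say. The genes and lists were chosen with earlier results of these data known. Named genes were the 10, the RFX subunits and Ciita, proteasome counterparts, 3 loading chaperones, H2-T23, H2-Q4, Irf1, the 2 lowest p in each list, the 3 most like Tap1, and Dyrk1a; others were picked after their values were seen, and 1 gene is not reported here. Promoters came from RefSeq. Alternatives were DESeq2, RLE scaling, no filter, a replicate block, a term for the libraries that stood apart, the 4 others alone, each library left out, and other length measures. Reads are not independent molecules, so counts understate the error.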

Additional observations from a re-analysis of the deposited data

How the results depend on the processing

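The number of genes called over the whole table, 2 by edgeR, was small and moved with the processing. It was 30 with DESeq2 (14 higher, 16 lower), 4 with no low-count filter, 6 with a term for the libraries that stood apart and 6 in the 4 other libraries alone. With the replicate number as a block edgeR called 0 (1110 at an unadjusted p under 0.05). This also ended the calls of Rfx5 and Ptgds, leaving 0 genes called in the other pathway lists. Whether the numbers pair the samples is not in the labels. With 1 library left out the count ran from 0 to 5, and that in the other pathway lists from 0 to 1. The fits with 0 had 812 to 1584 genes at an unadjusted p under 0.05. The median log2 fold change of the 8 fitted class I genes ran from -0.132 to 0.073 with 1 library left out.

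Tap1 ran from 0.84 to 1.24 with 1 library left out and from 1.03 to 1.18 otherwise; since it was chosen for being higher and its libraries do not overlap, its sign could not turn there, which is no sign of stability. Tap2, H2-K1, H2-D1 and Erap1 had the same sign in 12 of 12 alternatives, Erap1 down to 0.001. These fits share most of their libraries, and the 2 libraries that stood apart were not compared alone among them. Between those 2, log2 CPM differed by 0.17 in Tap2 and 0.07 in H2-K1, against the sign of their fits. In H2-D1 and Erap1 it differed by -0.11 and 0.01, with the sign of theirs. Tapbp turned negative in 2, B2m in 3 and Nlrc5 in 3, down to -0.03, -0.13 and -0.14. With no filter Psmb8 and Psmb9 had log2 fold changes of 0.51 and 0.95, on 52 and 32 counts. The order of levels per kilobase was the same by longest transcript and by TPM. Counts of 3 to 13 per library limit what can be said of Psmb8 and Psmb9.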
